A study of Mus musculus with 6 samples.

Results

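The myeloid C/EBP and KLF transcription factors are described here as 10 genes: *Cebpa*, *Cebpb*, *Cebpd* and *Cebpe* of the C/EBP family, *Klf2*, *Klf4*, *Klf6* and *Klf13* of the KLF family, and the zinc finger genes *Gfi1* and *Zfp467*. They were taken by symbol from the 24346 genes of each table, and all 10 were among the 11301 genes that reached an FPKM of 1 in at least 1 mouse and were tested. The list was chosen with the measured values of the comparison below known, and *Zfp467* was added to it, so the values of the 10 genes are given as a description, without a p-value. To ask how a JAK inhibitor acts on osteoclast precursors, the study sorted CX3CR1-EGFP+ cells from calvarial bone marrow of mice with LPS-induced inflammatory bone destruction and measured RNA by RNA-Seq. All 6 mice were CX3CR1-EGFP knock-in reporter mice, in which EGFP marks cells that use the *Cx3cr1* promoter, and all received LPS, a bacterial endotoxin, at 20 mg/kg into the calvarial periosteum. In 3 mice, ABT-317, which the study describes as selective for JAK1, was given by mouth at 60 mg/kg, 2 times daily for 5 days, and the other 3 mice received vehicle. No group without LPS was analysed here, the age of these mice is not given in the sources used here, and the sort rested on EGFP alone. Levels are FPKM, fragments scaled by transcript length and by the mapped fragments of the library, a value per length on which genes can be set side by side, and differences are on the log2(FPKM + 1) scale, JAK inhibitor minus vehicle, with the standard error (SE) of the limma fit.

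C/EBP proteins are leucine zipper transcription factors that direct the development of granulocytes and monocytes. C/EBP alpha acts at the entry into these lineages, C/EBP epsilon in the later maturation of neutrophils, and C/EBP beta and C/EBP delta in emergency myelopoiesis and the acute phase response. KLF proteins are zinc finger factors that bind CACCC and GC-rich boxes, and of these KLF4 is needed for monocyte differentiation and KLF2 restrains inflammatory activation of myeloid cells. GFI1 is a repressor that favors the neutrophil over the monocyte fate, and ZFP467 is a zinc finger protein known for favoring fat over bone formation by marrow stromal cells.

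In the JAK inhibitor-treated mice, *Zfp467* was 3.80-fold higher and *Cebpe* was also higher in every treated mouse than in any vehicle mouse, whereas *Cebpb*, the most abundant of the 10, was lower in every treated mouse. *Klf2* and *Klf4* were higher on average, but vehicle mouse 1 overlapped with the treated mice. The other 5 genes overlapped between the groups, with differences from -0.21 to 0.24. Among all tested genes, the groups did not overlap in 1121 (9.92%) with the treated mice higher and in 1363 (12.1%) with the treated mice lower, and because the 10 genes were chosen on this comparison nothing is read from the 2 higher and 1 lower among them. The median difference of the 10 genes was 0.14, against -0.0035 over all tested genes, and their median absolute difference was 0.32, against 0.16. These medians carry the same choice of genes, so nothing is read from them either. The number of non-overlapping genes was 3 without JAK inhibitor mouse 1, JAK inhibitor mouse 2 or vehicle mouse 3, but it was 7 without JAK inhibitor mouse 3, when *Cebpa*, *Klf2*, *Klf4* and *Klf6* were added, and 6 without vehicle mouse 1, when *Klf2*, *Klf4* and *Klf6* were added. Without vehicle mouse 2 it was 4, with *Klf13* added. Leaving out a mouse can add to this number but never lower it. The share over all tested genes with a mouse left out is not given here, so nothing is read from these counts.

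**Figure D1:**
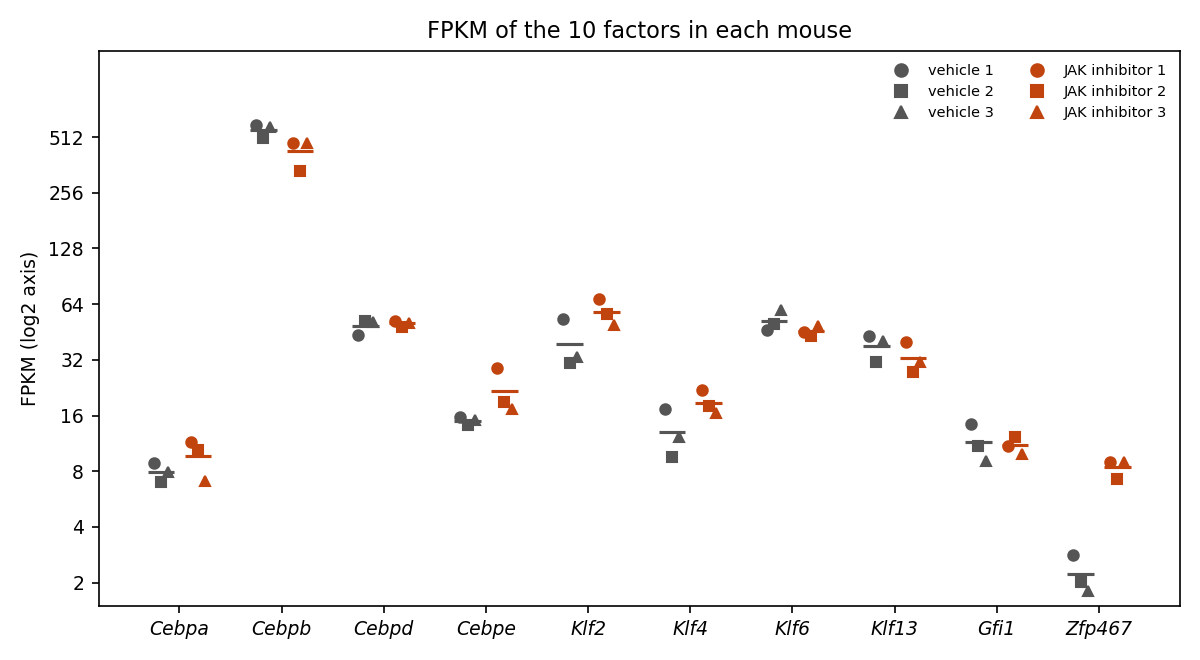
FPKM of the 10 factors in each of the 3 vehicle and 3 JAK inhibitor mice (vertical log2 axis), with 1 symbol per mouse and a horizontal line at the group mean. *Cebpb* lies far above the other factors in all 6 mice, and the groups are apart for *Cebpb*, *Cebpe* and *Zfp467*.

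The libraries had FPKM sums of 688372 to 775790. Classical monocyte markers were high in all 6 mice (summed FPKM of the 5 markers, 4397 to 6290). The 5 granulocyte progenitor markers summed to more (5394 to 9879 in vehicle, 12305 to 13270 in treated mice). Of these 5, 3 were higher on average in the treated mice, among them *Mpo* and *Elane*. *Ctsg* was nearly level (-0.05, groups overlapping), and *Ms4a3* was lower in every treated mouse (-0.39). The sorted EGFP+ cells, taken as a whole, thus also held abundant RNA of the genes in this list. Which of the sorted cells carried it was not tested. Of the 6 stromal and endothelial markers, *Col1a1*, *Col1a2*, *Bglap*, *Cxcl12* and *Cdh5* stayed at or below 0.765 FPKM, and *Pecam1*, which myeloid cells also use, was at 11.4 to 34.4 FPKM. Of the B cell markers, *Ms4a1* was listed at 0 in every mouse, *Cd79a* stayed at or below 0.849 FPKM, and *Cd79b* was at 26.7 to 35.4 FPKM. Vehicle mouse 3 stood apart, with *Il1r2*, a decoy receptor of mature neutrophils, at 846 FPKM against 58.4 and 31.5 in the other vehicle mice. In such sorted bulk samples, fewer cells of a type and less RNA per cell cannot be told apart.

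*Zfp467* (GRCm38, chr6:48427697-48445825, minus strand) showed the widest separation. Its FPKM was 2.84, 2.01 and 1.80 in vehicle mice 1, 2 and 3, and 8.97, 7.27 and 8.99 in JAK inhibitor mice 1, 2 and 3. The means were 2.22 ± 0.547 and 8.41 ± 0.990 (SD, n = 3 each), and the difference was 1.56 (SE 0.18). The lowest treated mouse was above the highest vehicle mouse, and *Zfp467* was the lowest of the 10 genes in each vehicle mouse but above *Cebpa* in 1 of the 3 treated mice. With 1 mouse left out, the difference was 1.46 to 1.69.

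*Cebpb* (chr2:167688915-167690418, plus strand, a single exon) made up most of the C/EBP RNA. Its FPKM was 596, 508 and 583 in the vehicle mice and 475, 335 and 478 in the treated mice. All treated mice were lower than all vehicle mice, with treated mouse 2 the lowest, and the means were 562 ± 47.8 and 429 ± 81.8 (SD, n = 3 each). The difference was -0.40 (SE 0.14) and became -0.24 when treated mouse 2 was left out. Of the exon bases of *Cebpb*, 20.7% are shared with *Tmem189* on the opposite strand, which had 51.1 ± 6.66 FPKM in vehicle and 40.5 ± 4.49 in treated mice (SD, n = 3 each). Whether reads were counted by strand is not given in the sources used here, and the share of such reads in *Cebpb* was not tested.

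*Cebpe* (chr14:54710360-54712174, minus strand) had 15.8, 14.2 and 15.2 FPKM in the vehicle mice and 29.0, 18.9 and 17.4 in the treated mice. The vehicle mice were close to each other (15.0 ± 0.789, SD, n = 3), and the treated mice spread widely above them (21.8 ± 6.32), with treated mouse 1 the highest. The difference of 0.47 (SE 0.18) became 0.26 without treated mouse 1. *Cebpa* (chr7:35119293-35121928, plus strand) had 8.81, 6.99 and 7.90 FPKM in vehicle and 11.5, 10.4 and 7.09 in treated mice, so that treated mouse 3 lay within the vehicle range and the difference was 0.24 (SE 0.19). *Cebpd* (chr16:15887286-15891031, plus strand) was nearly level, at 43.6, 51.8 and 51.3 against 52.1, 48.1 and 50.8 FPKM. Its difference of 0.04 (SE 0.10) turned to -0.03 without vehicle mouse 1, and 15% of its exon bases are shared with *Spidr* on the other strand.

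These shifts changed the composition of the C/EBP group. The summed FPKM of the 4 genes was 634 ± 46.5 in vehicle and 511 ± 85.9 in treated mice (SD, n = 3 each), and lower in all treated mice. The share of *Cebpb* in that sum was 88.6 ± 1.16% in vehicle and 83.8 ± 2.58% in treated mice, while the share of *Cebpe* was 2.37 ± 0.0701% and 4.28 ± 1.02%. The share of *Cebpd*, whose own level was nearly the same in both groups, was 7.76 ± 1.18% and 10.01 ± 1.44%. All 3 shares were apart between the groups, *Cebpb* lower and the others higher in every treated mouse, and a share of a sum made mostly of *Cebpb* is higher where *Cebpb* alone is lower. The log2 ratio of *Cebpb* to *Cebpe* FPKM was 5.24, 5.16 and 5.27 in the vehicle mice and 4.03, 4.15 and 4.78 in the treated mice. This ratio does not depend on how a library was scaled, and it was lower by 0.90 on average.

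*Klf2* (chr8:72319033-72321656, plus strand) had 53.5, 30.8 and 33.3 FPKM in vehicle and 67.9, 56.9 and 49.1 in treated mice. The difference was 0.58 (SE 0.20), and vehicle mouse 1 was above treated mouse 3. *Klf4* (chr4:55527143-55532466, minus strand) had 17.3, 9.499 and 12.2 FPKM in vehicle and 21.9, 17.9 and 16.5 in treated mice, a difference of 0.53 (SE 0.20), with the same overlap of vehicle mouse 1. Without vehicle mouse 1 the differences were 0.82 and 0.74, and the groups did not overlap. The log2 ratio of *Klf2* to *Klf4* FPKM ranged only from 1.45 to 1.70 over the 6 mice. Likeness was taken as the Euclidean distance between centered log2(FPKM + 1) profiles over the 6 mice. Of all tested genes, those most like *Klf4* were *Klf2* (0.197), *Zbtb45* (0.205) and *Tsc22d4* (0.206), which were nearly tied.

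*Klf6* (chr13:5861482-5870394, plus strand), a factor of injury and inflammatory responses, had 46.3, 50.002 and 59.1 FPKM in vehicle and 45.2, 43.2 and 48.8 in treated mice. *Klf13* (chr7:63886351-63938915, minus strand), known from T cells as a regulator of *Ccl5*, had 42.9, 31.0 and 40.3 against 39.8, 27.4 and 31.3 FPKM. Both were lower on average, by -0.17 (SE 0.11) and -0.21 (SE 0.17), with groups that overlapped. Within the KLF group, the share of *Klf2* was 27.3 ± 5.48% in vehicle and 37.2 ± 3.06% in treated mice, and that of *Klf13* was 26.7 ± 1.14% and 21.02 ± 2.02% (SD, n = 3 each). Every treated mouse was above the vehicle mice in the *Klf2* share and below them in the *Klf13* share, although neither gene's own level was apart. The *Klf2* shares nearly met, at 33.4% in vehicle mouse 1 and 33.7% in treated mouse 3. A share also depends on the rest of the sum, in which *Klf6* and *Klf13* were lower on average. *Gfi1* (chr5:107716657-107726036, minus strand) did not separate the groups, with 14.5, 11.0 and 9.13 FPKM in vehicle and 10.9, 12.3 and 9.87 in treated mice. Its difference of -0.04 (SE 0.17) took the other sign without vehicle mouse 1 (0.12) or treated mouse 3 (0.03).

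**Figure D2:**
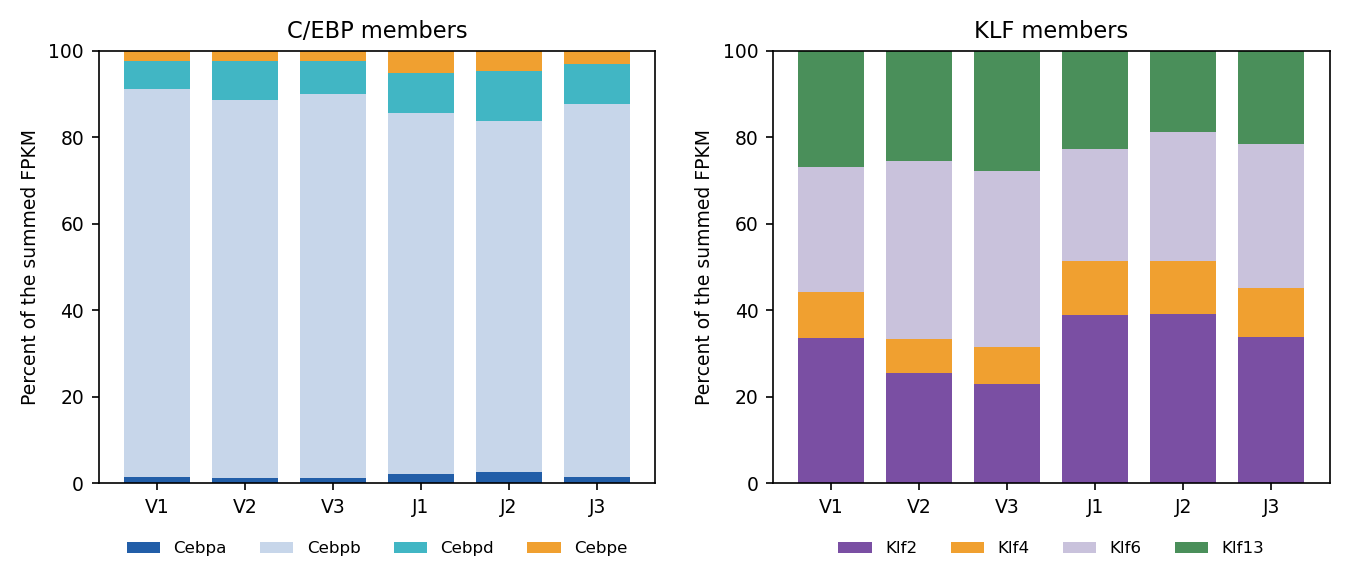
Share of each gene in the summed FPKM of the 4 C/EBP genes (left) and the 4 KLF genes (right), in percent, for vehicle mice 1 to 3 (V1 to V3) and JAK inhibitor mice 1 to 3 (J1 to J3). The *Cebpb* band is narrower and the *Cebpe* band wider in J1 to J3, and the *Klf2* band is wider in J1 to J3 than in V1 to V3. For *Klf2*, J3 (33.7%) is only slightly above V1 (33.4%).

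**Figure D3:**
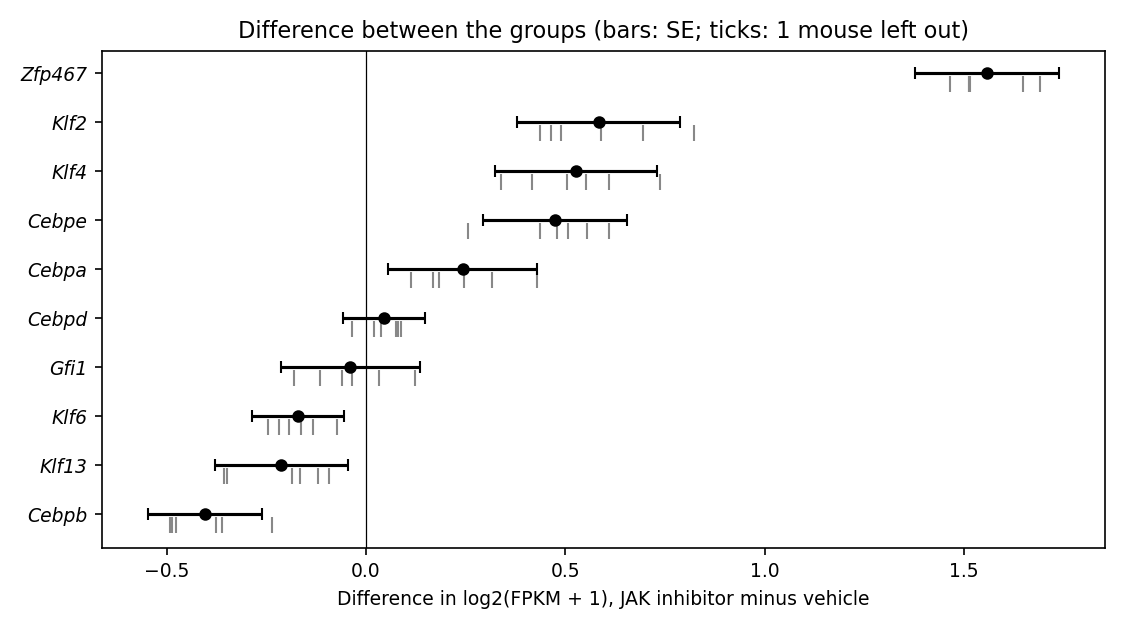
Difference between the groups for each factor (horizontal axis, log2(FPKM + 1), JAK inhibitor minus vehicle). Points with bars are the fit with its SE and gray ticks are the values with 1 mouse left out; *Zfp467* stands apart at 1.56, and ticks lie on both sides of 0 for *Cebpd* and *Gfi1*.

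In the order of mean levels over the 6 mice, *Cebpb* (496 FPKM) was followed by *Cebpd* (49.6), *Klf6* (48.8), *Klf2* (48.6), *Klf13* (35.4), *Cebpe* (18.4), *Klf4* (15.9), *Gfi1* (11.3), *Cebpa* (8.78) and *Zfp467* (5.31). Only *Cebpb* and *Cebpd* had ranges that were apart. *Klf13* was above *Cebpe* in 6 of 6 mice although their ranges met, and the remaining neighbors kept their order in 2 to 5 of the 6 mice. By the same distance over the 6 mice, the genes most like *Zfp467* included *Mogat2* (0.56) and *Tgfbr3* (0.62), those most like *Cebpb* were *Eif3i* (0.17), *Hmox1* (0.19) and *Rapgef1* (0.20), and those most like *Cebpe* were *Tmem143* (0.17), *Itgb2l* (0.23) and *Pisd-ps1* (0.24).

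Promoter sequences are shown for *Zfp467* and *Cebpb*, whose groups were apart in opposite directions, and for *Klf2* and *Klf4*, whose levels moved together. Each is the 250 bases before the RefSeq start on GRCm38.p6, 5′ to 3′ on the strand of the gene. Capitals mark CACCC boxes (CACCC or GGGTG) and GC boxes (GGGCGGG or CCCGCCC), the boxes that KLF proteins are known to bind, and neighboring matches may share bases.
*Zfp467*, chr6:48445091-48445340, minus strand: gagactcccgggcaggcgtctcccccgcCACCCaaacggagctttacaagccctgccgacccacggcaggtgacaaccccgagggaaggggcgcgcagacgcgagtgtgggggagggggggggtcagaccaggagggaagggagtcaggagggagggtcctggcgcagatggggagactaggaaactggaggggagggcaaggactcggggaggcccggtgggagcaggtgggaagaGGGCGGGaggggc
*Cebpb*, chr2:167688665-167688914, plus strand: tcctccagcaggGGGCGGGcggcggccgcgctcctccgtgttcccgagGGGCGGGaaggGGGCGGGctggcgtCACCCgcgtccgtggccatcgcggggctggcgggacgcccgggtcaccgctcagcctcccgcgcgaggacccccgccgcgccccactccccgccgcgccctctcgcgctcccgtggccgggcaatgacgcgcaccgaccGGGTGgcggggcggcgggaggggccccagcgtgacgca
*Klf2*, chr8:72318812-72319061, plus strand: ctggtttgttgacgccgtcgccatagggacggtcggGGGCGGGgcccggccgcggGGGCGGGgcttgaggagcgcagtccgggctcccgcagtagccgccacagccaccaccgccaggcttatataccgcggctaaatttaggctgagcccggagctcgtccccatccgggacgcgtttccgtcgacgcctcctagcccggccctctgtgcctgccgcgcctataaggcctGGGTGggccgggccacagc
*Klf4*, chr4:55532476-55532725, minus strand: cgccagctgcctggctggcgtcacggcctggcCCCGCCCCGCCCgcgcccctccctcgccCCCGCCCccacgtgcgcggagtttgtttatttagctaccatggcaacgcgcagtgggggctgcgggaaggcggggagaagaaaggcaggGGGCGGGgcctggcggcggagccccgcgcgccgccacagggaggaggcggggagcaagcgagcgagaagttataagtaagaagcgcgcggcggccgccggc
*Zfp467* had 1 CACCC box and 1 GC box, *Cebpb* had 2 and 3, *Klf2* had 1 and 2, and *Klf4* had 4 GC boxes. Of 32851 RefSeq promoter windows of this length, 52.0% held a CACCC box and 23.4% a GC box on either strand. The letters TTCNNNGAA, to which STAT factors bind, were in 7.02% of all windows and in none of these 4, and TTGCNNAA, a C/EBP motif, was in 9.56% and in none of these 4. Among members whose promoters are not shown, *Klf13* had 2 GC boxes, whereas *Cebpa*, *Klf6* and both *Gfi1* starts had none. The C/EBP motif was present at 1 of the *Gfi1* starts. The 4 promoters shown were picked by the levels of their genes, so nothing is read from their box counts. A match is a description of the letters and does not show binding.

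Over all tested genes, 15 (0.133%) had an adjusted p under 0.05 by limma, and none of the related transcription factors was among them. *Id2* passed this threshold without vehicle mouse 2 (limma adjusted p = 0.0354) or vehicle mouse 3 (limma adjusted p = 0.0400), and *Nr4a1* without vehicle mouse 1 (limma adjusted p = 0.0165). By the unadjusted test, 742 (6.57%) were higher and 1062 (9.4%) lower at an unadjusted p under 0.05. The other C/EBP genes *Cebpg*, *Cebpz* and *Ddit3* differed by 0.08, 0.13 and 0.18, and none had an unadjusted p under 0.05. Of the 13 other KLF genes, 8 were tested, 4 were listed at 0 in every mouse (*Klf12*, *Klf14*, *Klf15* and *Klf17*), and their median difference was 0.09. In this list, 2 were higher and 2 lower at an unadjusted p under 0.05, among them *Klf10*, a TGF-beta-induced factor (39.8 ± 1.10 to 52.7 ± 3.04 FPKM, SD, n = 3 each, limma adjusted p = 0.117), and *Klf7* (15.7 ± 2.32 to 9.75 ± 1.19 FPKM, limma adjusted p = 0.117). *Klf9*, a glucocorticoid-responsive gene, differed by -0.74, and *Klf1*, the erythroid KLF, by 1.25. The erythroid markers, which include *Klf1*, summed to 0.69 to 2.77 FPKM in vehicle and 6.09 to 51.1 in treated mice, and their part in the *Klf1* difference was not tested.

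Of 28 other transcription factors of myeloid lineages, 26 were tested, with a median difference of 0.16, and 9 were higher and 2 lower at an unadjusted p under 0.05. *Irf4*, 1 of the 9, reached the filter of 1 FPKM only in treated mice, and *Egr2* and *Maf* only in vehicle mice, so that the filter fixed their direction. The lower genes were *Egr1* (-1.48), an immediate early factor, and *Id2* (-1.35), an inhibitor of helix-loop-helix factors. *Id3* (1.22) and *Nr4a1* (1.14), the factor on which non-classical monocytes depend, were higher on average, with groups that overlapped. *Spi1*, the gene of the master myeloid factor PU.1, was 373 ± 14.0 FPKM in vehicle and 345 ± 17.9 in treated mice (SD, n = 3 each), a difference of -0.11. Of the 4 tested regulators of C/EBP protein stability, the COP1 ligase gene *Rfwd2* (-0.21), *Det1* (0.25), *Trib1* (0.05) and *Fbxw7* (-0.03), none had an unadjusted p under 0.05.

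Genes listed as targets of these factors went both ways, and the lists share members with each other and with the marker lists. Of the 11 C/EBP epsilon targets, which are mostly neutrophil granule genes, 4 were higher and 4 lower at an unadjusted p under 0.05, and the median difference was 0.58. *Chil3*, a chitinase-like protein of neutrophils and macrophages, fell from 9898 ± 930 to 3809 ± 775 FPKM (SD, n = 3 each), with a difference of -1.39 (SE 0.16) and a limma adjusted p = 0.0189. It was the only gene of the target lists past this threshold with all 6 mice, and it missed it without JAK inhibitor mouse 1 (limma adjusted p = 0.0713) or JAK inhibitor mouse 3 (limma adjusted p = 0.0744). Without vehicle mouse 3, which stood apart, the genes of the target lists past the threshold were *Chil3*, *Lcn2*, *Mmp8* and *Fcnb* of this list, *Elane*, *Saa3* and *Id2*. Without vehicle mouse 2 they were *Chil3*, *Lcn2*, *Camp* and *Mmp9* of this list, *Saa3*, *Id2* and *Pparg*, and without JAK inhibitor mouse 2 they were *Chil3*, *Camp* and *Ngp*. *Lcn2* (-1.66), an iron-binding secondary granule protein, was lower like *Chil3*. *Camp* (1.64), the cathelicidin of secondary granules, and *Cd177* (0.74), a neutrophil surface protein, were higher on average, each without overlap. The median of this list was 0.16 without vehicle mouse 3 and 0.24 without JAK inhibitor mouse 1.

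Of the 12 C/EBP beta and delta targets, 7 were tested, but *Nos2* and *Arg1* reached the filter of 1 FPKM only in vehicle mice, so that the filter fixed their direction, and no count or median over the 7 is read. *Il6* differed by -0.28, and 4 of the 7 were lower at an unadjusted p under 0.05. These were the acute phase genes *Saa3* (6428 ± 5745 to 417 ± 153 FPKM, limma adjusted p = 0.0557) and *Hp* (-0.84), the receptor gene *Il4ra* (-0.63) and the cytokine gene *Il1b* (-0.45). *Saa3* was 12973 FPKM in vehicle mouse 3 against 4090 and 2221 in the other vehicle mice. Without vehicle mouse 3, 5 of these targets were tested, of which 2 were lower at an unadjusted p under 0.05, and the median was -0.36. Over all 11130 genes tested without that mouse, 8.12% were lower at an unadjusted p under 0.05 by limma, and the median was -0.0043. Of the 11 C/EBP alpha targets, 3 were higher and 2 lower at that threshold, with a median of 0.01, which was -0.03 without JAK inhibitor mouse 3. *Elane* (1.12) and *Mpo* (0.93), both of primary granules, were higher on average, and *Ms4a3* (-0.39) and the LPS co-receptor gene *Cd14* (-0.83) were lower.

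Of the 9 KLF2 and KLF4 targets, 8 were tested, 2 of which were higher and 1 lower at an unadjusted p under 0.05. The median was 0.11 and turned to -0.03 with no filter on low values, and *Arg1* is again a gene that the filter kept only through vehicle mice. *Pparg* (1.71), the adipocyte and macrophage nuclear receptor, and *Thbd* (1.14), thrombomodulin, were higher on average, and *Cd14*, also in the C/EBP alpha list, was lower. Of the 11 genes known as repressed by GFI1, 1 was higher and 3 lower, with a median of -0.33, which became -0.18 without vehicle mouse 3, and *Egr2* was kept by the filter only through vehicle mice. The lower genes were *Egr1*, *Id2* and *Meis1* (-0.42), and the higher gene was *Irf8* (0.64), a monocyte factor at 166 ± 47.9 FPKM in vehicle and 252 ± 14.0 in treated mice.

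**Figure D4:**
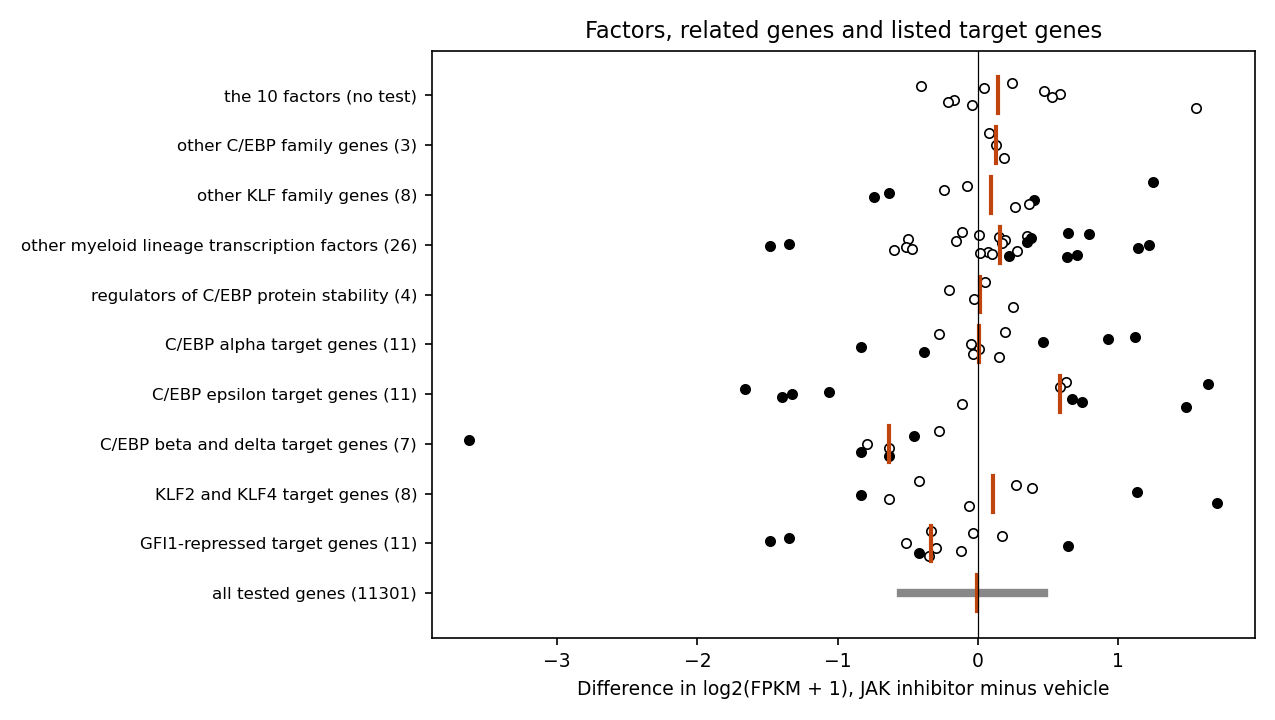
Difference of each tested gene (horizontal axis, log2(FPKM + 1), JAK inhibitor minus vehicle) for the 10 factors, related factors and listed targets. Filled points have an unadjusted p under 0.05 by limma, open points do not or, for the 10 factors, have no test, orange lines are medians and the gray bar spans the 5th to 95th percentile of all tested genes; points lie on both sides of 0 in most lists, and *Saa3* is lowest at -3.63.

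Markers of other myeloid cells also had different means in the groups, but within a group their order could differ from that of the factors. The 5 non-classical monocyte markers, *Nr4a1*, *Ace*, *Treml4*, *Spn* and *Cd300e*, all had a higher mean in the treated mice, 4 of them with an unadjusted p under 0.05. Their sum was 401, 257 and 161 FPKM in vehicle mice 1 to 3 and 458, 447 and 385 in treated mice 1 to 3. Vehicle mouse 1, the mouse in which *Klf2* and *Klf4* overlapped with the treated group, also had the highest vehicle sum. Between vehicle mice 2 and 3 the orders differed. The sum was lower in mouse 3, but *Klf2* (30.8 and 33.3 FPKM) and *Klf4* (9.499 and 12.2 FPKM) were higher there. The 4 immature neutrophil markers, *Ltf*, *Camp*, *Ngp* and *Fcnb*, which are also in the C/EBP epsilon list, all had a higher mean. They summed to 802, 752 and 583 FPKM in vehicle mice 1 to 3 and 2224, 983 and 1729 in treated mice 1 to 3. Treated mouse 1 had the highest sum and the highest *Cebpe*, but of the other treated mice, mouse 2 had the lower sum and the higher *Cebpe*. Of the 8 mature neutrophil markers, 7 had a lower mean, 4 with an unadjusted p under 0.05, and their sum was 13490, 10036 and 20970 FPKM in vehicle and 13373, 6550 and 11176 in treated mice. Of the 7 macrophage markers, 6 had a lower mean, 3 with an unadjusted p under 0.05, and their sum was 424, 431 and 243 FPKM in vehicle and 232, 138 and 161 in treated mice. The macrophage and mature neutrophil sums and *Cebpb* were all lowest in treated mouse 2, but within the vehicle group *Cebpb* was lowest in mouse 2, where the macrophage sum was highest. The 5 osteoclast markers, of which *Dcstamp* and *Ocstamp* reached the filter only in vehicle mice, had an unadjusted p under 0.05 and lower means, with sums of 166 to 576 and 107 to 112 FPKM. Over all tested genes, 6.57% were higher and 9.4% lower at an unadjusted p under 0.05 by limma. None of the markers in these lists had a limma adjusted p under 0.05 with all 6 mice. The part of these cell types in the differences of the factors was not tested.

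**Figure D5:**
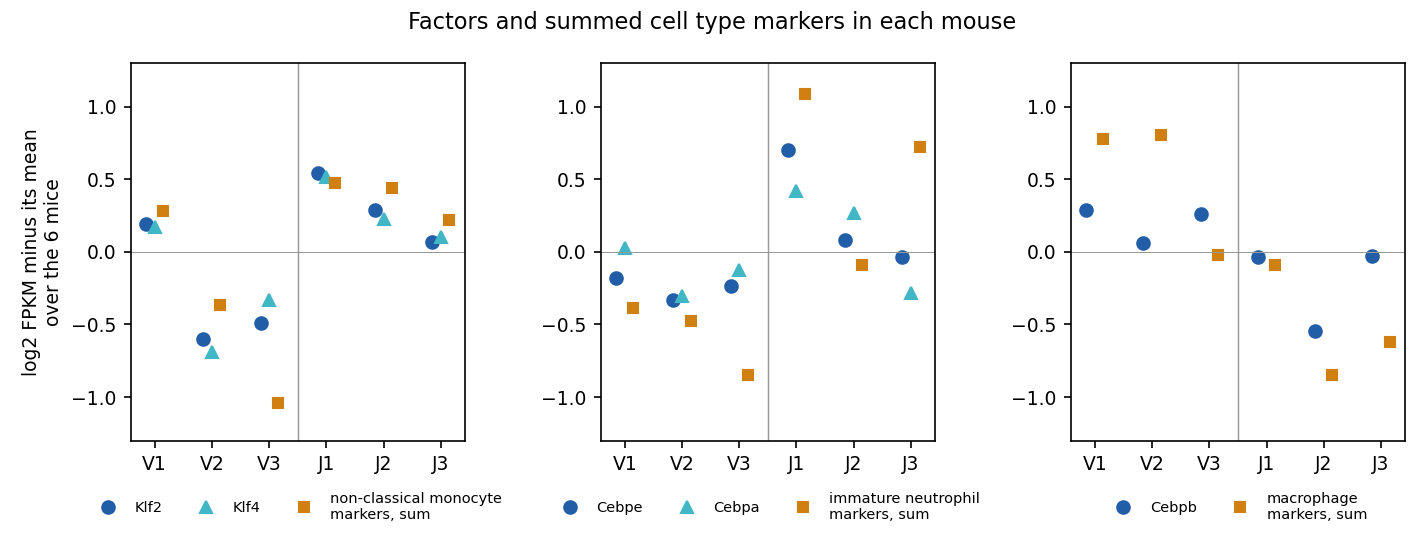
*Klf2* and *Klf4* with non-classical monocyte markers, *Cebpe* and *Cebpa* with immature neutrophil markers, and *Cebpb* with macrophage markers, in vehicle (V1 to V3) and JAK inhibitor mice (J1 to J3). The vertical axis is log2 FPKM minus its mean over the 6 mice, with squares for the summed markers. *Klf2*, *Klf4* and the non-classical monocyte markers are all lower in V2 and V3 than in V1. From V2 to V3 the 2 factors rise and these markers fall. J2 is lowest for *Cebpb* and the macrophage markers, which run in different orders among V1 to V3.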

How the data were processed

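RNA of CX3CR1-EGFP+ cells from 6 mice was measured by RNA-Seq, with 1 table of FPKM per mouse deposited by the authors. The submitters' processing notes name TopHat2 2.0.13, Bowtie2 2.2.3, SAMtools 0.1.19, Cufflinks 2.2.1 and mm10; the annotation and the use of strand are not given in the sources used here, and the library kit differs between the labels and the study's methods. FPKM is not a count, so log2(FPKM + 1) was compared with limma 3.58.1, run in R 4.3.3, between 3 and 3 mice. The fit took the 11301 genes that reached 1 FPKM in any mouse, used trended empirical Bayes without a replicate block, and gave 2-sided p-values adjusted by Benjamini-Hochberg over every tested gene. Groups came from the sample titles. The members and lists were chosen with earlier results of these data known, the lists were written by hand, and no list was given a test of its own. The genes named were all 10 members, up to 4 genes of each list with the smallest p and a mean FPKM of at least 1, any expressed C/EBP or KLF gene, and the 3 genes nearest to each of 4 members, of which 1 is not reported here, nor is 1 marker gene. *Spi1*, *Il6*, genes kept by the filter in 1 group or called with a mouse left out, marker genes beyond 4 in a list or with low values, and the overlapping genes were named outside this rule, after their values were seen.

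No counts were used here, so no counting intervals can be given; low FPKM steps put the relative depth of the libraries within 1.17-fold, a rough estimate, since at most 42 genes shared a step. No 2 libraries were identical, and 8100 genes were listed at 0 in every mouse. Tested on simulated data for this comparison with 11301 genes, of which 200 were changed by 1.5 on the log2 scale, the fit recovered 92% of them, with 6.12% of calls false. The changed genes were drawn from those above the lowest levels, with no outlying mouse simulated. Recovery of smaller changes, as seen in every member except *Zfp467*, was not tested. Positions are from GENCODE M21 on GRCm38, and promoters from RefSeq, which matched 8 of the 10 members. Python 3.11.15 was used with pandas 2.3.3, NumPy 2.4.6 and, for figures, matplotlib 3.10.9. The alternatives were a pseudocount of 0.1, 2 other filters, 2 other scalings, no trend, library weights, the replicate block and each mouse left out.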

Additional observations from a re-analysis of the deposited data

How the results depend on the processing

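Of 140 values of the 10 members under the 14 alternatives, 139 moved by less than the spread between mice; the exception was *Zfp467*, at 1.90 with a pseudocount of 0.1. *Chil3* kept an adjusted p under 0.05 in 10 of 14, with limma adjusted p from 0.0031 to 0.216.

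The 15 genes with an adjusted p under 0.05 became 2 with no filter, 34 with a filter of 1 FPKM in 3 mice, 2 without the trend and 63 with library weights, and 3 to 95 with 1 mouse left out: 5 without JAK inhibitor mouse 1, 6 without JAK inhibitor mouse 2, 3 without JAK inhibitor mouse 3, 95 without vehicle mouse 2 and 94 without vehicle mouse 3. With the replicate number as a block it was 67. Same-numbered mice showed no shared deviation (r = 0.0158, 0.0542 and -0.000164 across genes, which are not independent replicates). This check cannot exclude that mice were paired by number, and the study's methods name no pairing. The median of the other KLF genes was 0.16 with a pseudocount of 0.1, 0.27 with no filter and 0.016 to 0.16 with 1 mouse left out, that of the C/EBP epsilon targets 0.16 to 0.78, and that of the GFI1-repressed genes -0.41 to -0.18. The KLF2 and KLF4 target median was 0.27 with the filter of 3 mice and -0.03 with no filter, and the C/EBP alpha target median -0.03 with library weights. The number of members whose groups did not overlap was 3 to 7 with 1 mouse left out, a comparison chosen after seeing the data. This number can only stay or rise when a mouse is left out. The causes of these shifts were not tested. Depth was not known as counts, which limits what can be said of the lowest genes.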
